A study of Homo sapiens with 6 samples.

Results

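Chromatin accessibility was examined around 6 SOX genes, SOX4, SOX11, SOX5, SOX6, SOX9 and SOX2, in RH30 rhabdomyosarcoma cells with and without an intact MyoD gene. Peaks of the 6 libraries that overlapped were merged into regions, and a region was taken for a SOX gene when the summit of its strongest peak lay in the gene body or within 250 kb of it. This gave 118 of 105569 regions, with 14 at SOX4, 21 at SOX11, 17 at SOX5, 37 at SOX6, 23 at SOX9 and 6 at SOX2. SOX4 was chosen by the calls and the fold enrichment rank of a region near it, which had a peak in every MyoD-deleted library and in none of the vector libraries, so its values are given here as a description and were not tested. The other genes were listed with it by name.

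The measurement was ATAC-seq, in which the Tn5 transposase inserts sequencing adapters into open chromatin. RH30 is an established fusion-positive rhabdomyosarcoma cell line that expresses MyoD but does not complete muscle differentiation. Both groups of 3 libraries came from RH30 cells transduced with Cas9: the vector group carried a scramble guide RNA and the MyoD-deleted group carried guide RNAs against MyoD. The labels call the replicates biological without saying how the cultures were separated, so p-values measure the spread between these libraries. The study describes clonally selected MyoD-deleted lines, and which line or guide gave these libraries, and whether the cells also carried the IκBα super repressor used elsewhere in the study, is not given in the sources used here.

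SOX factors bind the minor groove of DNA through an HMG box, bend it, and mostly act beside a partner factor. SOX2 belongs to the SOXB1 group and maintains stem and neural progenitor cells, SOX4 and SOX11 form the SOXC group of progenitor and tumour cells, SOX5 and SOX6 form the SOXD group, which lacks an activation domain of its own, and SOX9 belongs to the SOXE group. SOX9, SOX5 and SOX6 together drive cartilage genes, and SOX6 also represses slow-fibre genes in developing muscle. MyoD is the basic helix-loop-helix factor of the muscle lineage and binds E-boxes, of which CAGCTG is a preferred form.

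The sequences at the summits that carry the results are printed first. Each is 201 bases of hg38 (GRCh38) centred on the strongest summit of a region, with capitals for matches to the motifs searched: CAGCTG (E-box), TGACTCA or TGAGTCA (AP-1), GGAATG (TEAD), and ACAATG and ACAAAG (SOX), on both strands, so that CATTGT and CTTTGT are SOX matches and CATTCC is a TEAD match on the opposite strand. The 2 gained SOX4 regions with the higher ranks, the SOX9 region with an AP-1 match, a lost SOX6 region and the 3 regions with the largest falls were chosen.
SOX4 −245 kb, gained (chr6:21348602-21348802, plus strand): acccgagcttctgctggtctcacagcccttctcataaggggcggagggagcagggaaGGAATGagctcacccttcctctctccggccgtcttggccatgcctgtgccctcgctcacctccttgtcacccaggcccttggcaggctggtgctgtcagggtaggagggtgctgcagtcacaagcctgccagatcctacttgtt
SOX4 +176 kb, gained (chr6:21769624-21769824, plus strand): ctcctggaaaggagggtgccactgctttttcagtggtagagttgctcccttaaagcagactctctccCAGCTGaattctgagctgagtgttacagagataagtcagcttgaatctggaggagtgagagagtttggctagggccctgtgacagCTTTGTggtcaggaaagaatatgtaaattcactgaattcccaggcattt
SOX9 +250 kb, gained (chr17:72371012-72371212, plus strand): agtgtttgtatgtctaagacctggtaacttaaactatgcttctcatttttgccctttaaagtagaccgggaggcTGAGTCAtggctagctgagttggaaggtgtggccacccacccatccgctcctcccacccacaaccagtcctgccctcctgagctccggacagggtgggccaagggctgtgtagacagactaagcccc
SOX6 intron 3, lost (chr11:16292625-16292825, plus strand): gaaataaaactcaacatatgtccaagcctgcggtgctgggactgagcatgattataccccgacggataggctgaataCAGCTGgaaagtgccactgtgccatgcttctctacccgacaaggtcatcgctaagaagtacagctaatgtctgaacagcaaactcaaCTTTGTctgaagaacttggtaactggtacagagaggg
SOX6 intron 4, lower (chr11:16194298-16194498, plus strand): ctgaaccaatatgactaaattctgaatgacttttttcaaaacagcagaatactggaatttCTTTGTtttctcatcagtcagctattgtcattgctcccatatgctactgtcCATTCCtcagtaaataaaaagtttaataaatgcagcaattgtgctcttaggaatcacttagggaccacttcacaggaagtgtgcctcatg
SOX6 intron 6, lower (chr11:16118425-16118625, plus strand): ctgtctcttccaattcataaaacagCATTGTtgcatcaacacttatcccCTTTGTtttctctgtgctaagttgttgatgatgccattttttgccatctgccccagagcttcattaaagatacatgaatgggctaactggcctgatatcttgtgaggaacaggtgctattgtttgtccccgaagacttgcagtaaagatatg
SOX5 exon 5, lower (chr12:23740870-23741070, plus strand): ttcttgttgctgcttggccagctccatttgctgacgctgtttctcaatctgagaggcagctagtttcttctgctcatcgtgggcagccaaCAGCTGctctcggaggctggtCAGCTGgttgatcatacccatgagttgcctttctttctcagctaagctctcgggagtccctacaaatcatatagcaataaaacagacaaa

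Distances are along the strand of the gene from its outermost annotated 5′ end, so that negative values lie upstream. Introns and exons are numbered by the Ensembl canonical transcript, which can start elsewhere. Summit pileup is the whole-number count of the peak caller over a summit and is not scaled for depth. Summit height is log2 of that pileup over the smallest background of the library, centred on the median of the 47885 regions called in all 6 libraries, and a change is the mean height in MyoD-deleted minus vector libraries. A region called in 3 of 3 MyoD-deleted and 0 of 3 vector libraries is termed gained, and the opposite lost. The libraries held 63140 to 74121 peaks in the vector group and 73745 to 80608 in the MyoD-deleted group, with smallest backgrounds of 2.22 to 3.41 and 2.27 to 2.35, and read totals were not in the lists, so their depth is unknown. Centring removed a shift of 0.19 log2 units by which the libraries' medians were higher in the MyoD-deleted group, and changes are relative to it. A peak with a summit within 2 kb of the 5′ end was called in all 6 libraries at 10 of 10 muscle markers, MYOD1 included, and at 3 of 7 markers of other cell types in some library, while PTPRC, CD3E, PECAM1 and ALB had none. Of those 3, EPCAM had a peak in 2 vector and 3 MyoD-deleted libraries, KRT8 in 0 and 2, and CDH5 in 0 and 3. At the 5′ end of the targeted gene MYOD1 (chr11:17719004-17720574) pileups were 545, 400 and 506 in the vector and 256, 373 and 366 in the MyoD-deleted libraries, a change of −0.49 ± 0.10 (SE, limma, adjusted p = 0.00210), but accessibility there does not check an edit of the coding sequence.

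The 5′ end of each SOX gene was open in every library. These are bulk libraries, in which a site open in fewer cells and a site less open in each cell cannot be told apart. Of the 118 regions, 45 were called in all 6 libraries, 7 were gained, 2 were lost and 64 had another pattern, 22 of the 118 being called in a single library. Regions high in a single group were often not called in the other and so have no change, which leaves the count of changes to the 45. In the 5 genes other than SOX4, 42 regions had a change, and 2 of them rose and 8 fell at an adjusted p under 0.05 (limma over all 47885 regions). Across all regions 11.4% rose and 12.8% fell by the same test, so the SOX shares of 4.76% and 19.0% stand on either side of the background and rest on few regions. Gained regions made up 4 of 104 regions (3.85%) at these 5 genes and 4.56% of all regions, and lost regions 2 of 104 (1.92%) and 1.78%, while the 3 gained regions of SOX4 include the one it was chosen by. The median change was 0.01 over these 42 regions and 0.04 over all regions. Without centring, 8 SOX regions rose and 6 fell, and across all regions 11821 rose and 3843 fell in place of 5438 and 6149. The number that rose was 5 without vector replicate 1, 5 without vector replicate 2 and 4 without MyoD-deleted replicate 3, and the number that fell was 5 without vector replicate 2 and 5 without vector replicate 3. The number gained was 12 without vector replicate 1 and 11 without MyoD-deleted replicate 1, and the number lost was 5 without vector replicate 1 and 4 without vector replicate 2. With a library left out its group has fewer libraries to meet the rule, which alone can raise these counts.

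At SOX4 (ENSG00000124766.7, chr6:21593751-21598619), a progenitor factor that many tumours express, the region over the gene's 5′ end overlapped between the groups. At a distance, 8 regions were called in no vector library, 3 of them in all 3 MyoD-deleted libraries. The region over the 5′ end (chr6:21593453-21595720) had pileups of 119, 107 and 112 in the vector and 95, 105 and 117 in the MyoD-deleted libraries. The groups overlapped, with a change of −0.03 ± 0.13 (SE, n = 3 and 3), which was 0.16 without centring. This was also the highest SOX4 region, and it held an E-box 21 bases before its summit. A region at −4.70 kb (chr6:21587641-21589510) had pileups of 96, 73 and 89 in the vector and 74, 67 and 70 in the MyoD-deleted libraries, a change of −0.21 ± 0.15. A region at −55.3 kb (chr6:21537550-21538889) had pileups of 63, 48 and 64 and of 42, 42 and 47, a change of −0.34 ± 0.17. Only in the last of these 3 did the heights of the groups not overlap, with every MyoD-deleted library lower, although its fold enrichment over the local background was 9.24 to 9.59 in the vector and 9.99 to 11.2 in the MyoD-deleted libraries. All 3 lie in an intron of the lncRNA ENSG00000283480.

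The strongest of the gained SOX4 regions, the one that brought SOX4 into this account, lay at −245 kb in no annotated gene (chr6:21348287-21349074). Its pileups were 46, 56 and 46 in the MyoD-deleted libraries, 13.3 to 14.1 times the local background. Within each library it ranked above most other peaks, at the 90.6, 88.2 and 86.4 percentile of fold enrichment, or 88.4 ± 2.1 (SD, n = 3). By centred height it was at −0.38 ± 0.17 (SD), below the median of regions called in all libraries. Its summit sequence, printed above, was 61.7% G and C and held a TEAD match and none of the other motifs. A second gained region lay at +176 kb in an intron of CASC15 (chr6:21769413-21770142), a lncRNA gene that neighbours SOX4, with pileups of 24, 30 and 34 and a mean percentile of 63.6 ± 8.8. It held an E-box and a SOX match. The third, at +86.1 kb and also in a CASC15 intron (chr6:21678931-21680100), was weak, with pileups of 14, 16 and 13 at a mean percentile of 20.8 ± 5.2. With peaks of −log10 q of at least 5, with equal numbers of peaks per library, with peaks required to cover 50% of the region, or with windows of 100 bp on each side of summits, the regions at −245 and +176 kb were gained in every case and the one at +86.1 kb in none.

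**Figure D1:**
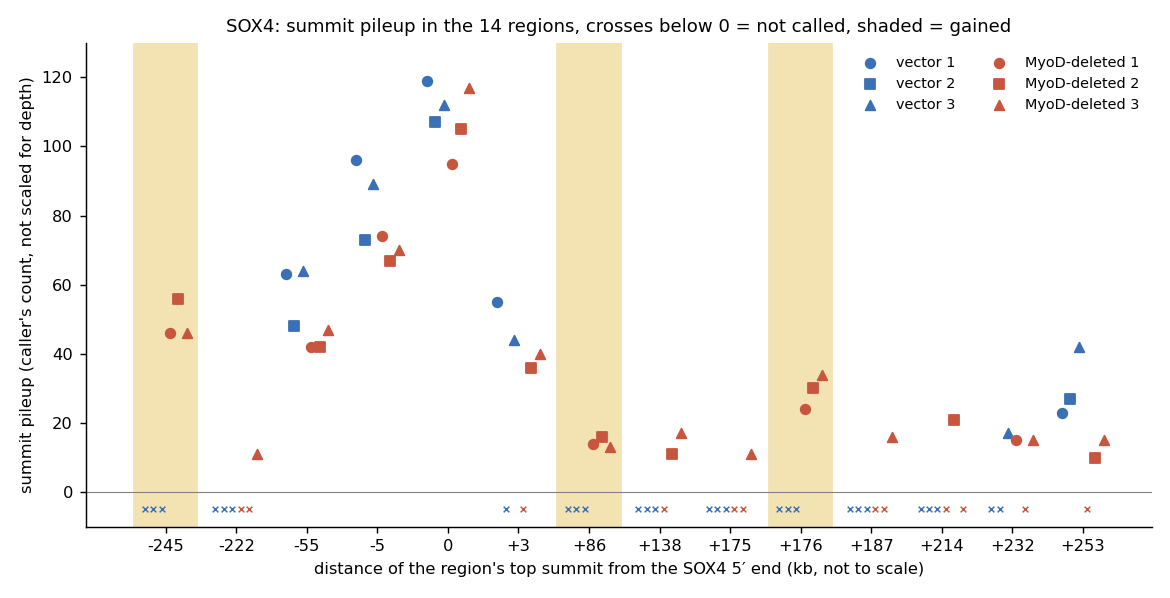
Summit pileup (vertical axis, the peak caller's count) in the 14 SOX4 regions ordered by distance of the summit from the SOX4 5′ end (horizontal axis, kb, not to scale). Points are the 3 vector (blue) and 3 MyoD-deleted (red) libraries, crosses mark libraries without a peak, and shading marks gained regions; the 5′ end region reached 95 to 119 in all 6 libraries, and the gained region at −245 kb reached 46 to 56 in the MyoD-deleted libraries.

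The other 8 SOX4 regions were called in 1 to 5 libraries. Most of them were in CASC15, and a region at +253 kb (chr6:21846670-21847536) went the other way from the gained ones, with vector pileups of 23, 27 and 42 and MyoD-deleted pileups of 10 and 15, the first MyoD-deleted library having no peak. At +138 kb (chr6:21731482-21732049) pileups were 11 and 17 in MyoD-deleted libraries 2 and 3, and no vector library had a peak. In all, the vector libraries called 5, 4 and 6 of the 14 SOX4 regions and the MyoD-deleted libraries 7, 10 and 13. These counts include the region at −245 kb by which SOX4 was chosen. Without it the MyoD-deleted libraries called 6, 9 and 12 and the groups met at 6, with a ratio of means of 1.80, beside 1.15 over all regions. At the edge of the window, the region at −245 kb and that at +253 kb were the outermost SOX4 regions inside, at 245 and 248 kb from the gene body. The next ones outside lay at 430 kb on the lower side (chr6:21162991-21163845), with a pileup of 14 in 1 vector library and 25, 19 and 27 in the MyoD-deleted libraries, and at 287 kb on the higher side (chr6:21885144-21886364), with 101, 64 and 56 and then 90, 117 and 92.

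**Figure D2:**
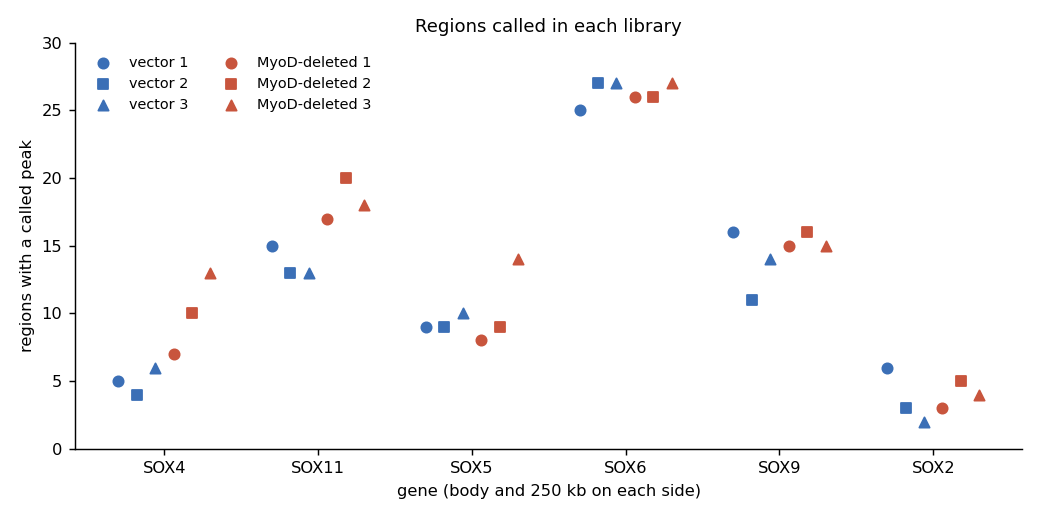
Number of regions with a called peak (vertical axis) in each library at each SOX gene (horizontal axis). Points are the 3 vector (blue) and 3 MyoD-deleted (red) libraries. At SOX4 the counts are 4 to 6 against 7 to 13, or 6 to 12 without the region SOX4 was chosen by. At SOX11 they are 13 to 15 against 17 to 20, and the groups overlap at the other genes. The ratio of means is 1.34 at SOX11 and 1.15 over all regions.

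SOX11 (ENSG00000176887.7, chr2:5692384-5701385), the other SOXC gene here and a factor of neural progenitors, showed no region past the threshold among 7 with a change, although without centring 2 of the 7 rose. Its 5′ end region (chr2:5690938-5693334) was its highest, with pileups of 254, 238 and 274 in the vector and 231, 218 and 270 in the MyoD-deleted libraries. The change was −0.03 ± 0.12 (adjusted p = 0.906) and the groups overlapped. A second region within 2 kb of the 5′ end (chr2:5693519-5693914), over the coding exon, was called in 2 vector libraries and 1 MyoD-deleted library, at 1.69 to 1.83 times its local background. One region was gained, at −15.0 kb in an intron of LINC01248 (chr2:5677035-5677713), with pileups of 20, 23 and 24 at a mean percentile of 47.1 ± 4.3, and it held none of the motifs. The nearest region with a change, at −25.4 kb (chr2:5666418-5667243), had pileups of 31, 29 and 33 in the vector and 29, 60 and 50 in the MyoD-deleted libraries, which gave a change of 0.58 ± 0.23 with an adjusted p of 0.0721, or 0.0108 without centring. The vector libraries called 15, 13 and 13 of the 21 regions and the MyoD-deleted libraries 17, 20 and 18. That is a ratio of means of 1.34, beside 1.15 over all regions.

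SOX5 (ENSG00000134532.20, chr12:23529504-24562544), a SOXD factor whose gene spans about 1033 kb, had 1 region that fell, 1 lost and 1 gained. The region that fell lay over coding exon 5 (chr12:23740254-23741199). Its pileups were 39, 34 and 38 in the vector and 15, 16 and 15 in the MyoD-deleted libraries, without overlap, a change of −1.20 ± 0.21 (adjusted p = 0.000453). Its summit sequence held 2 E-boxes, starting 10 bases before and 11 bases after the summit. The lost region was the next one along the gene, in intron 4 (chr12:23751561-23752352), with pileups of 22, 25 and 18 in the vector libraries and no motif match. A region in intron 8 (chr12:23631663-23632607) was also higher in the vector libraries, with pileups of 59, 44 and 42, against 18 and 16 in MyoD-deleted libraries 2 and 3 and no peak in the first, so it had no tested change. The gained region lay upstream at −193 kb in an intron of the lncRNA ENSG00000255745 (chr12:24754740-24755739), with pileups of 31, 40 and 26 and a SOX match 6 bases after its summit. At −157 kb (chr12:24719165-24720047), pileups of 51, 14 and 13 in the vector and 33, 63 and 23 in the MyoD-deleted libraries gave a change of 0.86 ± 0.37 that did not pass with centring (adjusted p = 0.110) and passed without it (adjusted p = 0.00821), with the first vector library far above the other two. The 5′ end region (chr12:24561464-24563782), the highest of the gene, had pileups of 83, 76 and 81 and of 57, 75 and 72, a change of −0.18 ± 0.15 (adjusted p = 0.460). Its summit lay outside the canonical SOX5 transcript.

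SOX6 (ENSG00000110693.19, chr11:15966449-16739591), the SOXD factor that represses slow-fibre genes in muscle, had the largest falls of the 6 genes, and all of them were in introns of the gene. In intron 6 (chr11:16117777-16119008), pileups were 41, 48 and 55 in the vector and 13, 12 and 18 in the MyoD-deleted libraries. The groups were well apart, and the change was −1.69 ± 0.24 (adjusted p = 7.46e-05), a height ratio of 0.310. In intron 4 (chr11:16193874-16194981), pileups were 91, 70 and 82 and then 27, 26 and 31, a change of −1.46 ± 0.17 (adjusted p = 1.21e-05), also without overlap. A lost region lay in intron 3 (chr11:16292284-16293417), with pileups of 24, 28 and 18 in the vector libraries. A second region in intron 6 (chr11:16126095-16126924) had pileups of 38, 57 and 61 and then 24, 24 and 41, and although the change was −0.76 ± 0.27 (adjusted p = 0.0458) the groups overlapped. That call was lost without vector replicate 2 or 3 or MyoD-deleted replicate 1 or 2, with adjusted p-values of 0.233, 0.179, 0.146 and 0.180, and without centring (adjusted p = 0.0746).

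The summit sequences of these 4 SOX6 regions each held the SOX form ACAAAG and differed in the E-box. That form was in 10 of the 37 SOX6 regions and in 14.3% of all regions. The lost region in intron 3 and the weaker region in intron 6 held E-boxes, 1 and 2 of them. The stronger region in intron 6 and that in intron 4 held no E-box, and that in intron 4 also held a TEAD match.

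Outside these introns no SOX6 region with a change passed the threshold with centring. The 5′ end region (chr11:16737835-16739149), the highest of the gene, had pileups of 461, 315 and 357 in the vector and 291, 339 and 415 in the MyoD-deleted libraries, a change of −0.05 ± 0.10 (adjusted p = 0.787). Its summit lay outside the canonical SOX6 transcript and in an intron of the coding gene C11orf58. In the rest of the gene body, 3 of 10 regions with a change fell, 0 rose and the median change was −0.13. Outside the body 0 of 9 passed in either direction and the median was 0.23, but without centring 3 of these 9 rose. Across all regions 12.8% fell and 11.4% rose with centring, and body and outside were not tested against each other. At −81.0 kb in an intron of PLEKHA7 (chr11:16820201-16821081), a junction protein gene, pileups were 26, 26 and 34 in the vector and 31, 42 and 39 in the MyoD-deleted libraries, a change of 0.45 ± 0.22 that did not pass with centring (adjusted p = 0.149) and passed without it (adjusted p = 0.0300), and the heights did not overlap. The gained region, at −70.9 kb and also in PLEKHA7 (chr11:16809984-16810657), had pileups of 23, 29 and 18 and an E-box. SOX6 had the nearest coding 5′ end for 9 of its 37 regions, and for the regions that fell that of C11orf58, which overlaps SOX6, was nearer, so position alone does not tie these regions to SOX6.

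**Figure D3:**
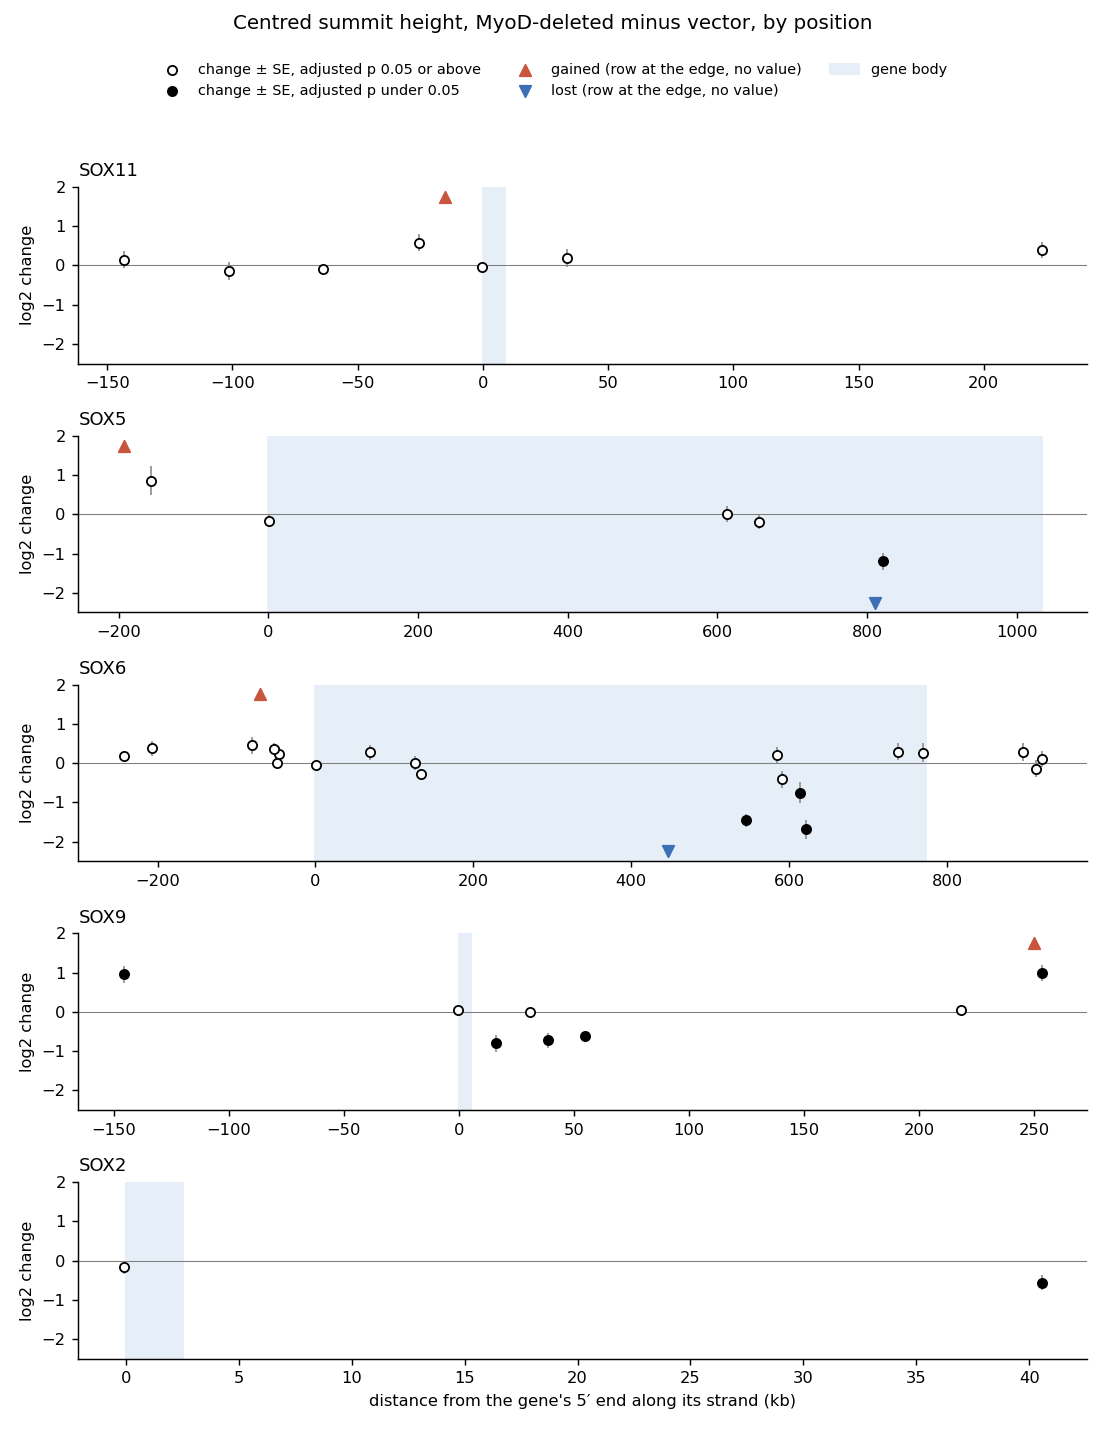
Change in centred summit height (vertical axis, log2, MyoD-deleted minus vector) against distance from the gene's 5′ end (horizontal axis, kb) for regions called in all 6 libraries at 5 SOX genes. Circles are changes with SE bars, filled where the adjusted p is under 0.05, triangles at the panel edges mark gained and lost regions without a value, and shading is the gene body; the falls of −1.20 to −1.69 lie inside SOX5 and SOX6, and SOX9 has 3 falls from +16.3 to +55.1 kb and a rise on each flank.

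SOX9 (ENSG00000125398.8, chr17:72121020-72126416), the master factor of cartilage, had regions past the threshold in both directions, and with centring it was the only such gene of the 5 tested. Without centring this also held at SOX5, where 1 rose and 1 fell, and at SOX6, where 3 rose and 2 fell. The regions that fell lay downstream of the 5′ end in introns of the lncRNA gene SOX9-AS1, and those that rose lay farther out on either flank. At +16.3 kb (chr17:72136786-72137879), pileups were 36, 30 and 44 in the vector and 19, 17 and 24 in the MyoD-deleted libraries, a change of −0.80 ± 0.22 (adjusted p = 0.0132). At +38.6 kb (chr17:72158715-72160036), they were 67, 56 and 53 and then 29, 32 and 41, a change of −0.73 ± 0.18 (adjusted p = 0.00727). At +55.1 kb (chr17:72175429-72177244), they were 235, 152 and 202 and then 107, 120 and 134, a change of −0.62 ± 0.11 (adjusted p = 0.000527). In all 3, which were chosen by a test on these heights, each MyoD-deleted library had a lower height than every vector library. Of the motifs searched their summits held 1 E-box, at +16.3 kb.

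Between these regions, one at +30.8 kb (chr17:72151157-72152419) showed no change past the threshold, with pileups of 186, 141 and 166 and then 139, 150 and 177 and a difference of −0.01 ± 0.11 (adjusted p = 0.957). The call at +16.3 kb was lost without vector replicate 3 (adjusted p = 0.0814) and without MyoD-deleted replicate 2 (adjusted p = 0.0697), and that at +38.6 kb without vector replicate 2 (adjusted p = 0.0518). A further region at +84.5 kb (chr17:72204971-72206050) had pileups of 52, 37 and 32 in the vector libraries and 16 and 14 in MyoD-deleted libraries 1 and 3, with no peak in the second and so no tested change. Ranked by fold enrichment within each library, the 3 falls did not pass, with adjusted p-values of 0.229, 0.162 and 0.0774.

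The SOX9 5′ end region (chr17:72120302-72122179) had pileups of 305, 176 and 236 in the vector and 219, 246 and 224 in the MyoD-deleted libraries. It did not differ beyond the spread, with a change of 0.04 ± 0.11 (adjusted p = 0.819). The highest region of the locus lay at +218 kb in an intron of LINC00511 (chr17:72338389-72339905), a lncRNA gene, with pileups of 509, 311 and 387 and then 351, 417 and 396 and a change of 0.04 ± 0.09 (adjusted p = 0.800). Farther into LINC00511, at +253 kb (chr17:72373819-72374583), pileups rose from 29, 35 and 38 to 58, 67 and 67, a change of 0.99 ± 0.21 (adjusted p = 0.00188), without overlap. By rank of fold enrichment this rise did not pass (adjusted p = 0.665), and its fold enrichment was 4.09, 7.43 and 5.99 in the vector and 6.74, 7.26 and 7.09 in the MyoD-deleted libraries. A gained region lay close by, at +250 kb (chr17:72370823-72371363), with pileups of 42, 51 and 35, an AP-1 match and a mean percentile of 20.8 ± 10.6, at 4.62 ± 0.96 times the local background. On the other flank, at −145 kb in no annotated gene (chr17:71975324-71976329), pileups were 15, 11 and 12 in the vector and 21, 25 and 24 in the MyoD-deleted libraries, a change of 0.96 ± 0.22 (adjusted p = 0.00347) without overlap, and its summit held none of the motifs. Its vector peaks were weak, at the 8.5 to 13.0 percentile of fold enrichment, and the smallest pileups called in those libraries were 10, 8 and 9.

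SOX2 (ENSG00000181449.4, chr3:181711925-181714436), the pluripotency and neural stem cell factor, had few regions. Its 5′ end region (chr3:181711392-181713470), in an intron of SOX2-OT and the highest of the locus, had pileups of 73, 75 and 88 in the vector and 59, 73 and 68 in the MyoD-deleted libraries. The heights overlapped, and the change was −0.17 ± 0.17 (adjusted p = 0.518). At +40.5 kb, also in SOX2-OT (chr3:181752104-181752813), pileups were 78, 61 and 70 and then 33, 42 and 65, a change of −0.56 ± 0.19 (adjusted p = 0.0414). Its groups did not overlap by a narrow margin, the third MyoD-deleted library lying close to the vector libraries. The call was lost without vector replicate 2 or 3 or MyoD-deleted replicate 1 or 2 (adjusted p = 0.132, 0.108, 0.199 and 0.136), and without centring (adjusted p = 0.157).

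**Figure D4:**
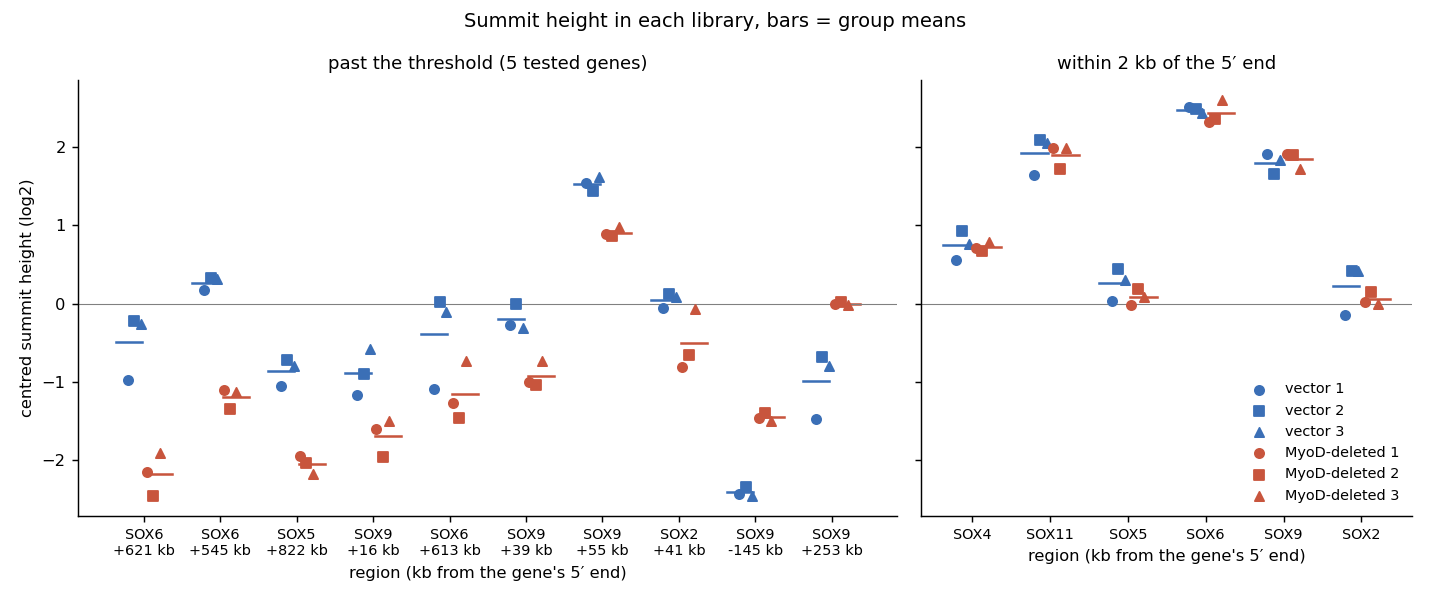
Centred summit height (vertical axis, log2) in each library at the 10 regions past the threshold (left, ordered by change) and at the 5′ end regions of the 6 genes (right). Points are the 3 vector (blue) and 3 MyoD-deleted (red) libraries and bars are group means. Regions on the left were chosen by a test on these same heights, so the gap between their groups is no separate result. On the right the groups overlap in all 6.

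Set beside each other, the 5′ end regions differed in centred height, the value of the highest summit of each library in the region. A longer region can hold more summits, and the lengths were not matched. The SOX6 and SOX5 summits lay outside the canonical transcripts of these genes, and that of SOX6 also in an intron of C11orf58. SOX6 was the highest at 2.46 ± 0.10 (SD over 6 libraries), followed by SOX11 at 1.92 ± 0.18 and SOX9 at 1.82 ± 0.11, whose values overlapped. SOX4 was at 0.74 ± 0.13, and SOX5 at 0.17 ± 0.17 and SOX2 at 0.14 ± 0.23 did not differ beyond their spread. All 6 were above the median region of 0 by height, at the 54.7 to 94.6 percentile of regions called in every library, and their changes ran from −0.18 to 0.04. Percentiles of fold enrichment among all regions called in a library gave another order. Vector and MyoD-deleted means were 95.0 and 96.3 at SOX6, 62.6 and 67.2 at SOX9, and 53.0 and 55.7 at SOX5. They were 48.9 and 52.6 at SOX2, 41.4 and 41.5 at SOX11, and 37.7 and 41.2 at SOX4.

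Matches to the motifs were read beside the share of all 105569 regions that hold them within 100 bp of the summit, as a description. The E-box was in 37 of the 118 SOX regions (31.4%) and in 25.1% of all regions. The AP-1 form was in 21 (17.8%, against 17.9%) and the TEAD form in 19 (16.1%, against 17.3%). The SOX forms ACAATG and ACAAAG were in 17 (14.4%, against 10.4%) and 19 (16.1%, against 14.3%). Of the 8 SOX regions that fell, 3 held an E-box, 0 an AP-1 match, 1 a TEAD match, 1 ACAATG and 3 ACAAAG. Of the 7 gained, 2 held an E-box, 1 an AP-1 match, 1 a TEAD match, 0 ACAATG and 2 ACAAAG. Among all gained regions the E-box, AP-1 and TEAD shares were 13.2%, 27.4% and 24.5%, and among all lost regions the E-box share was 54.8%, beside 1 of the 2 lost SOX regions. SOX4 regions held AP-1 matches in 0 and TEAD matches in 4 of 14.

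The 13 other SOX genes taken by the same window had 396 regions, of which 194 had a change. Of these 19 rose (9.79%) and 29 fell (14.9%), while 7 regions were gained (1.77%) and 3 lost (0.758%), beside background shares of 11.4%, 12.8%, 4.56% and 1.78%. At SOX8, a SOXE relative of SOX9, 14 of 30 regions fell and 1 rose, and at SOX10, the SOXE factor of neural crest, 1 of 33 fell and 7 rose. Around 10 cartilage genes that SOX9, SOX5 and SOX6 are known to activate, 202 of 422 regions had a change, with 22 that rose and 22 that fell (10.9% each), 25 gained (5.92%) and 4 lost (0.948%). At COL2A1, the main cartilage collagen, 0 of 19 passed in either direction and 3 of 33 regions were gained. These windows also hold other genes. The 3 coding genes whose median height followed that of SOX4 most closely over the 6 libraries were ELOC, ENSG00000258677 and TMEM70, each with r = 0.99 among 17682 genes, but these 3 share the same 6 regions and the SOX4 median rests on 3.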

How the data were processed

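RH30 cells gave 6 ATAC-seq libraries, 3 of the vector and 3 of the MyoD-deleted group. Libraries were made with Nextera Tn5 transposase. The authors used Rsubread to align the paired reads to hg38, GenomicAlignments to keep proper pairs and MACS2 to call peaks in each library on its own. The processing notes also name bcl2fastq 2.20 and FastQC. The deposited score follows from the −log10 q, truncated to a whole number, and was not used. The deposited fold enrichment is a ratio to the local background within a library. Each deposited −log10 p and −log10 q belongs to a summit and its own library. The lists hold no read counts, so the count test of the study was not run.

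Mitochondrial peaks, 1 per library, were dropped. A whole-number pileup and a background rate were solved for at every peak so that the Poisson model of the caller returned the deposited fold enrichment and −log10 p, which succeeded for 100% of peaks at a relative tolerance of 0.0001. Peaks that overlapped or touched were merged. Heights of regions called in all 6 libraries were compared with limma 3.58.1 in R 4.3.3 (lmFit, and eBayes with a trend), two-sided, without a block, with Benjamini-Hochberg adjustment over 47885 regions and a threshold of 0.05. Gained and lost regions were counted without a test. In simulated comparisons of these groups over the 47885 regions, only 200 regions were shifted. The fit called 104 of 200 shifted by 1 log2 unit and 0 of 200 shifted by 0.5, with at most 3 unshifted regions called. In the data 5438 regions rose and 6149 fell, so the adjustment was less strict there. The simulation therefore does not give the share of changes missed in the data, although small changes can be missed.

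Genes were taken from GENCODE version 44. The motif search covered 100 bp to each side of the strongest summit. The members and lists were chosen with earlier results of these data known. Regions named in the text are those within 2 kb of a 5′ end, up to 5 gained and 5 lost per gene by rank, up to 3 that rose and 3 that fell per gene by size of change, and the highest of each gene, beside MYOD1 as the target and the 3 coding genes most like SOX4 by Pearson r of the median height. Regions at +138, +253 and beyond the window of SOX4, −25.4 kb of SOX11, −157 kb and intron 8 of SOX5, −81.0 kb of SOX6 and +30.8 and +84.5 kb of SOX9, and the genes SOX8, SOX10 and COL2A1, were chosen after their values were seen. Alternatives were other scalings, limma without a trend, the replicate number as a block, other region and peak filters, other windows and each library left out. Python 3.11.15 was used with numpy 2.4.6, scipy 1.17.1, pandas 2.3.3 and matplotlib 3.10.9.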

Additional observations from a re-analysis of the deposited data

How the results depend on the processing

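The counts rest on few regions and moved with several choices, and the lists give no depth, so counting error is unknown. Of SOX regions that rose, 2 in the report, there were 8 without centring, 1 by rank of fold enrichment, 1 by rank of −log10 p, 6 with regions called in at least 2 libraries of each group, 1 with a −log10 q of at least 5, 0 within 100 kb and 4 where the SOX gene had the nearest 5′ end, and 2 to 5 with each library left out. Of those that fell, 8 in the report, there were 3 by rank of fold enrichment, 5 by rank of −log10 p and 5 with a −log10 q of at least 5, and 5 to 9 with each library left out. Gained regions, 7 in the report, numbered 3 within 100 kb and 8 to 12 with each library left out. Lost regions, 2 in the report, numbered 4 where peaks had to cover 50% of the region, 1 by nearest 5′ end and 2 to 5 with each library left out. Leaving a library out eases the rule for gained and lost regions, as fewer libraries must meet it, so these counts can rise by construction.

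Of the 10 regions past the threshold, none changed direction in 128 refits and 27 of these no longer passed. The falls in SOX5 exon 5 and in SOX6 intron 4 passed in 13 of 13 refits, and the stronger fall in SOX6 intron 6 and the SOX9 rise at −145 kb in 12 of 12. Those with 12 had no refit with a −log10 q of at least 5, where they were not among the regions called in every library. The weaker SOX6 intron 6 region and the SOX2 region at +40.5 kb passed in 4 of 13. Among the 5′ end regions of the 5 genes tested and the highest SOX9 region, none of which passed in the refits, changes near 0 turned sign. Without centring they were 0.16 at SOX11, 0.016 at SOX5, 0.15 at SOX6 and 0.020 at SOX2. By rank of fold enrichment they were 0.13 at SOX6 and −0.022 at the highest SOX9 region. With each library left out they ran from −0.17 to 0.064 at SOX11, from −0.13 to 0.0059 at SOX6, from −0.032 to 0.11 at the SOX9 5′ end and from −0.0038 to 0.087 at the highest SOX9 region. Why these values moved was not tested.

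With the replicate number as a block, 2 regions rose and 8 fell, as without it. Deviations of libraries with the same number from their group means correlated at −0.04, −0.20 and 0.09, and those with unlike numbers at −0.23 to 0.26. With 3 libraries in each group, these values cannot show whether libraries of the same number were handled together.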
